A study of Mus musculus with 8 samples.

Results

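Chemokines are small secreted proteins that bind to receptors on the cell surface and guide moving cells along their gradients. Mouse genes of this system were taken from a table of RNA-seq counts by symbol: numbered CC ligands (Ccl), CXC ligands (Cxcl), Cx3cl1 and its receptor Cx3cr1, numbered CC receptors (Ccr) and CXC receptors (Cxcr), and the atypical receptors Ackr1 to Ackr4. Of 53921 rows that name a gene, 53 such genes are described: 33 ligands, 16 conventional receptors and 4 atypical receptors. The cells were mouse induced cardiomyocytes, which are fibroblasts pushed towards a heart muscle identity by forced expression of transcription factors, and they were collected on day 5. Both groups carried the factor mix labelled MGT, read here as Mef2c, Gata4 and Tbx5. The 2 shNT libraries had the hairpin taken as control, and the 2 shGrhl3 libraries had a hairpin against Grhl3, a Grainyhead-like transcription factor known from epithelia. The labels do not give the age or strain of the donor animals, nor whether a group's libraries are from separate cultures. The p-values reflect the spread between libraries alone, and that spread may be technical.

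The families are named for the spacing of the first cysteines of the ligand. Ligands signal through receptors coupled to inhibitory G proteins, while atypical receptors bind and remove ligands without that coupling. In the heart, fibroblasts make Ccl2, Ccl7 and Cxcl12, which attract monocytes and other cells, whereas Ccr1 and Cxcr4 are best known from leukocytes. Inducible ligand genes are commonly switched on through NF-kappaB, and Cxcl9, Cxcl10 and Cxcl11 through interferon signalling.

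Upstream sequences are shown for 4 genes, chosen because Ccl20 and its receptor Ccr6 changed together, Cx3cl1 was the CX3C ligand that changed, and Cxcl10 stood for the interferon-inducible ligands. Each is the 250 bases before the RefSeq start on GRCm38.p6, written 5′ to 3′ along the gene. Capitals mark matches, on either strand, to the kappaB consensus, the Grainyhead core AACNNGTT, the AP-1 motif TGANTCA, the interferon response motif GAAANNGAAA and the TATA motif TATAAA. Ccl20 covers chr1:83116516-83116765 (plus strand), Ccr6 is shown at the second of its listed starts (chr17:8242276-8242525, plus strand), Cx3cl1 covers chr8:94771930-94772179 (plus strand), and Cxcl10 covers chr5:92348890-92349139 (minus strand).
Ccl20: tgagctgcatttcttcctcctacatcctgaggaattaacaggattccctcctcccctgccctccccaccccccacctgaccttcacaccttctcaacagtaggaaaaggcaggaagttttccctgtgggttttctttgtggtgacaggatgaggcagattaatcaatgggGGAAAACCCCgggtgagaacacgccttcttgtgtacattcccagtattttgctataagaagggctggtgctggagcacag
Ccr6: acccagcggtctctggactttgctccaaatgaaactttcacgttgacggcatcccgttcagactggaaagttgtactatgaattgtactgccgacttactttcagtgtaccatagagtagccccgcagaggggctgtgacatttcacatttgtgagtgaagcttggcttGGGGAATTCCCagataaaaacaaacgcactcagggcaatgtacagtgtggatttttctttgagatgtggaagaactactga
Cx3cl1: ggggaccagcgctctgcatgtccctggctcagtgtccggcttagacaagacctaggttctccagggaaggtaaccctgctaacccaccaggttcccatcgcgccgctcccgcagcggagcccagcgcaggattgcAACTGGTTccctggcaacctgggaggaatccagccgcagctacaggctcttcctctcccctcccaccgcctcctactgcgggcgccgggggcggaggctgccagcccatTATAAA
Cxcl10: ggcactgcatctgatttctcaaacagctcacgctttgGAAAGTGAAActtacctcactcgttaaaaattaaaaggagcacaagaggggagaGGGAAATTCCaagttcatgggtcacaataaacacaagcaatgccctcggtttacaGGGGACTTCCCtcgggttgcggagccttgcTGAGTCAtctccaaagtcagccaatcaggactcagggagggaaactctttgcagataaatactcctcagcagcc

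The kappaB matches began at base -80 of Ccl20, at -81 and -80 of Ccr6, and at -159, -104 and -103 of Cxcl10, counted from the start site. Of all 32851 listed promoters, 7.25% held a kappaB match in the same 250 bases, 6.75% an AP-1 match, 3.64% a Grainyhead match, 2.98% an interferon response match and 12.4% a TATA match. Promoters were listed for 39 of the 53 genes, and 11 of those 39 held a kappaB match. A gene is counted here if any of its listed starts held a match, whereas the 7.25% is per promoter. Among members with enough counts to test, 17 had a listed promoter and 7 of them held a kappaB match, namely Ccl20, Ccl9, Ccr1, Ccr6, Cxcl1, Cxcl2 and Cxcl10. The match of Ccr6 lies at the second start only, as the 250 bases before its other listed start (chr17:8235793-8236042) hold none of these motifs. Of these 7, Ccl20 and Ccr6 rose in shGrhl3 cells, Ccl9, Ccr1 and Cxcl10 fell, and Cxcl1 and Cxcl2 did not pass the test. Among those 17 genes, the Grainyhead core was found only upstream of Cx3cl1, and the interferon response motif only upstream of Cxcl10. Such a match is a description of letters, not of a bound site.

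Counts totalled between 16104243 and 19823397 per library. Grhl3 itself was low, with 31 and 14 counts in shNT and 11 and 19 in shGrhl3, and its log2 fold change of -0.72 (SE 0.53, 95% interval -1.81 to 0.37) did not pass (edgeR adjusted p = 0.311). The counts thus do not show whether Grhl3 fell. Of the 3 factors read from MGT, Tbx5 (log2 fold change -0.31, edgeR adjusted p = 0.00311) and Gata4 (-0.23, 0.0320) were lower in shGrhl3. Mef2c (-0.37, 0.189) did not pass. The deposited columns read as shGrhl3 are named shGrhl1 and shGrhl2, and their last digit was read as a replicate number. All 12 cardiomyocyte markers and all 14 fibroblast markers were detected, and their summed CPM (counts per 1000000 of the TMM-adjusted library size) were 7614 ± 71.2 and 14769 ± 187 in shNT and 8116 ± 231 and 15549 ± 578 in shGrhl3 (SD, n = 2). Single markers moved in both directions: 5 of the 12 cardiomyocyte markers rose and 2 fell, and 3 of the 14 fibroblast markers rose and 8 fell. The cardiomyocyte risers with the lowest p were Myh6 (log2 fold change 3.61, 20.6 to 251 CPM), Tnni3 (2.59), Tnnc1 (1.27) and Actc1 (0.97). The 2 that fell were Nppa (-0.62) and Myl4 (-0.32). A sum is set mostly by its most abundant markers, so it can stay level while others move. Of 13 endothelial markers 1 rose and 3 fell, with sums of 511 and 532 CPM in shNT and 434 and 469 CPM in shGrhl3. The share that passed in either direction was 58.3% for cardiomyocyte, 78.6% for fibroblast and 30.8% for endothelial markers. Over all genes tested it was 35.3%, so the endothelial count is near what any set of genes would give. Summed markers of leukocytes went from 712 and 979 CPM in the shNT libraries to 164 and 131 CPM in the shGrhl3 libraries.

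**Figure D1:**
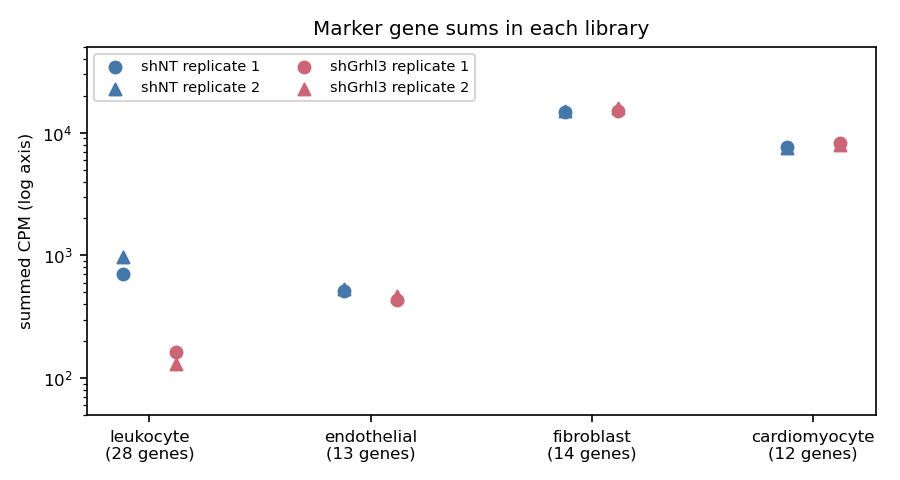
Summed CPM (log axis) of 4 marker lists, with a point for each library, circles for replicate 1 and triangles for replicate 2. The leukocyte sums of shGrhl3 (131 and 164 CPM) lie below those of shNT (712 and 979 CPM), while the fibroblast and cardiomyocyte sums lie close together. Single markers within the fibroblast and cardiomyocyte lists moved in both directions.

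Of the 53 genes, 22 had enough counts to test. In shGrhl3 cells 5 rose (Ccl20, Ccr6, Ccl17, Cx3cl1 and Ccl7), 8 fell (Ccr1, Cxcr4, Ackr3, Ccl3, Ccl5, Ccl9, Cxcl16 and Cxcl10) and 9 did not pass the threshold of 0.05 on the p-value of edgeR's quasi-likelihood test, adjusted over all genes; every adjusted p given without a tool is from it. Over all 15324 genes tested, 35.3% passed, 17.2% as higher and 18.1% as lower, so a call on its own is common in this comparison. The 2 groups did not overlap for 19 of the 22 members, against 66.5% of all genes tested. The median log2 fold change was -0.59 for the 22 and -0.01 for all genes. A gene high in either group alone could enter the 22, so these figures describe them and support nothing further. Transcript lengths were not used here, so levels are compared between libraries and never between genes.

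**Figure D2:**
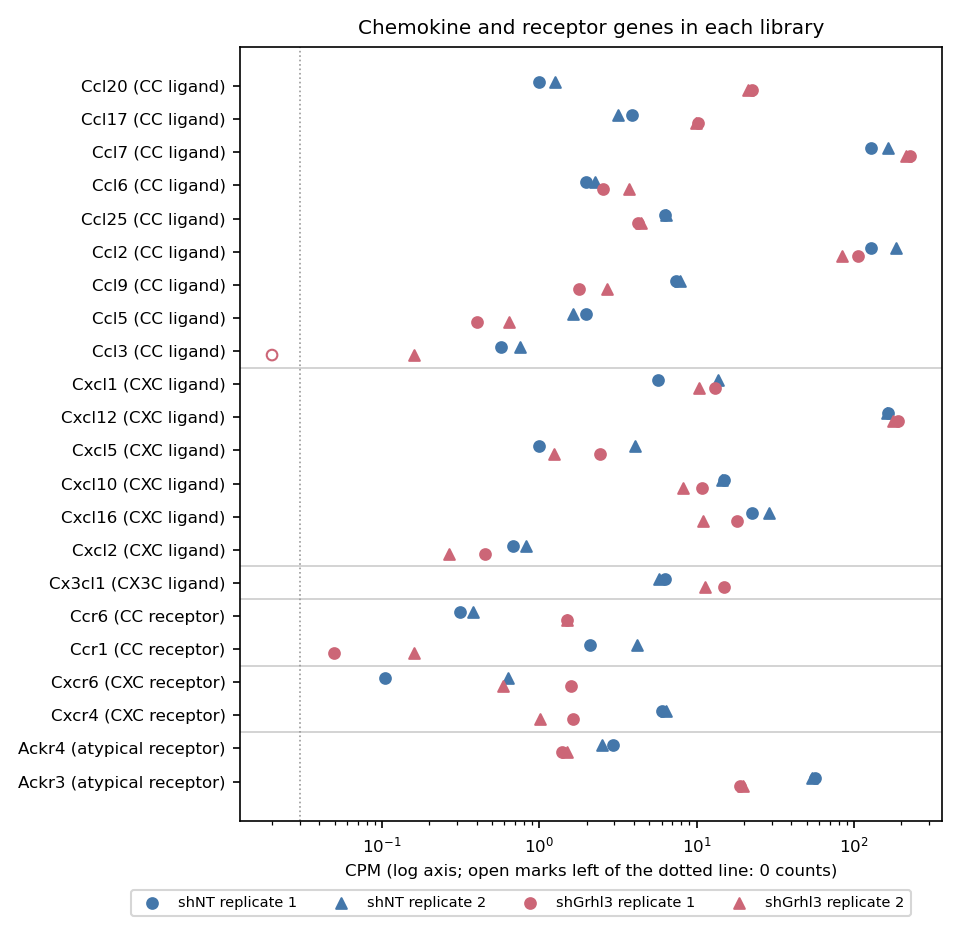
CPM (log axis) of the 22 tested genes, with a point for each library, blue for shNT and red for shGrhl3, and open marks for 0 counts. Ccl20 lies near 1 CPM in shNT and above 21 CPM in shGrhl3, and Ccl3 has 0 counts in a single shGrhl3 library.

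Among CC ligands, 9 of 19 were tested, of which 3 rose and 3 fell. That is 33.3% in each direction, against 17.2% higher and 18.1% lower over all genes tested. Ccl20, which draws lymphocytes and dendritic cells that carry Ccr6, had 19 and 20 counts in shNT and 448 and 399 in shGrhl3. In CPM these were 0.993 and 1.26 against 22.3 and 21.4, so every shGrhl3 library lay far above every shNT library. The rise was 19.5-fold (log2 fold change 4.29, SE 0.23, adjusted p = 2.70e-12), the largest rise among the 22. Ccl17, a ligand of Ccr4 on T cells, stood at 3.87 and 3.15 CPM in shNT and at 10.2 and 9.85 CPM in shGrhl3, a rise of 2.83-fold (SE 0.22 on the log2 scale, adjusted p = 9.48e-06).

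Ccl7, a monocyte attractant, was at 129 and 165 CPM in shNT and at 228 and 213 CPM in shGrhl3. It rose 1.50-fold, or by 0.59 on the log2 scale (SE 0.10, adjusted p = 0.000111). The neighbouring Ccl2, the main monocyte attractant of fibroblasts, went the other way without passing, from 128 and 186 CPM to 106 and 83.8 CPM (log2 fold change -0.72, SE 0.22, 95% interval -1.29 to -0.16, adjusted p = 0.0599). The spread within shNT was wide for Ccl2, although its groups did not overlap. The fall of Ccl2 passed in 7 of 14 alternatives: limma-voom (adjusted p = 0.000284), no robust spread estimates (0.000135), the replicate block (0.0260) and each fit that left out a library (2.18e-12 to 0.00680). Leaving out shNT replicate 2 moved its log2 fold change to -0.43 and leaving out replicate 1 to -0.97, and its adjusted p reached 0.223 with no expression filter. Within a library, which removes any scaling, there were 1.00 and 0.883 counts of Ccl7 per count of Ccl2 in shNT and 2.14 and 2.54 in shGrhl3. The Ccl2 and Ccl7 proteins both bind Ccr2, whose gene had 0 counts in all 4 libraries.

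The falling CC ligands are products of macrophages and T cells, among other sources. Ccl9, a myeloid attractant, had 142 and 125 counts in shNT and 36 and 50 in shGrhl3, and fell from 7.65 ± 0.319 to 2.24 ± 0.623 CPM (SD, n = 2), a log2 fold change of -1.78 (SE 0.26, adjusted p = 1.12e-05). Ccl5, a ligand of Ccr1, had 38 and 26 counts against 8 and 12, with a log2 fold change of -1.81 (SE 0.51, adjusted p = 0.00765). The Ccl5 call was lost without shNT replicate 1 (adjusted p = 0.0752) and without shGrhl3 replicate 1 (0.0576).

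Ccl3, another ligand of Ccr1, had 11 and 12 counts against 0 and 3. Its pooled level was 8.48 times higher in shNT, with an exact 95% counting interval of 2.56 to 44.1 (edgeR adjusted p = 0.0303). That call was lost with DESeq2 (adjusted p = 0.0820), without shNT replicate 1 (0.0655) and without shGrhl3 replicate 1 (0.177). Its log2 fold change was -2.98, and ran from -6.60 without shGrhl3 replicate 2 to -1.99 without shGrhl3 replicate 1.

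The 3 remaining tested CC ligands did not pass. Ccl6, a myeloid ligand beside Ccl9, stood at 1.99 and 2.27 CPM in shNT and at 2.54 and 3.69 CPM in shGrhl3 (log2 fold change 0.55, 95% interval -0.14 to 1.24, adjusted p = 0.213). Per count of Ccl9, the libraries held 0.268 and 0.288 counts of Ccl6 in shNT and 1.42 and 1.38 in shGrhl3. Ccl25, a thymus and gut ligand of Ccr9, stood at 6.32 and 6.42 CPM in shNT and at 4.24 and 4.44 CPM in shGrhl3 (log2 fold change -0.55, adjusted p = 0.0638). Of the 10 CC ligands with too few counts to test, Ccl28 had 11 and 7 counts in shNT and 1 and 3 in shGrhl3. Ccl4 had 4 and 4 against 1 and 0, Ccl8 had 3 and 3 against 0 and 0, and Ccl22 had 3 counts in a single shGrhl3 library. Ccl11 had 1 count in all, and the other 5 (Ccl1, Ccl12, Ccl19, Ccl24 and Ccl26) had 0. A count of 0 allows up to 3 counts per library, a floor that covers counting error only.

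Among the 13 CXC ligands, 6 were tested, 0 rose and 2 fell. Of those tested, 0% rose and 33.3% fell, against 17.2% and 18.1% over all genes tested. In either direction 33.3% passed, near the 35.3% over all genes tested. With 6 genes, the 0 cannot be read as a trait of CXC ligands. At an unadjusted p under 0.05, edgeR gave 0 CXC ligands as higher, and DESeq2 and limma-voom gave 0 as higher past an adjusted p of 0.05. Cxcl10, which attracts T cells through Cxcr3, was at 14.9 and 14.4 CPM in shNT and at 10.8 and 8.14 CPM in shGrhl3. Its fall of 0.62 on the log2 scale (SE 0.17, adjusted p = 0.00578) was lost without shGrhl3 replicate 2 (log2 fold change -0.42, adjusted p = 0.100). Cxcl16, a membrane-bound ligand and scavenger receptor, was at 22.5 and 28.7 CPM in shNT and at 18.2 and 11.0 CPM in shGrhl3 (log2 fold change -0.80, SE 0.21, adjusted p = 0.0115). The groups did not overlap for either gene, though the shGrhl3 libraries lay apart from each other for Cxcl16, whose log2 fold change moved to -1.21 on leaving out shGrhl3 replicate 1 and to -0.47 on leaving out replicate 2.

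Cxcl12, which holds stem and immune cells in place through Cxcr4, had between 2584 and 3824 counts per library. It stood at 164 and 163 CPM in shNT and at 191 and 177 CPM in shGrhl3, a log2 fold change of 0.17 that did not pass (SE 0.08, adjusted p = 0.116), and passed without shGrhl3 replicate 2 (log2 fold change 0.25, adjusted p = 0.0303). The neutrophil attractants Cxcl1, Cxcl2 and Cxcl5 did not pass. Cxcl1 was at 5.64 and 13.7 CPM in shNT and at 13.1 and 10.4 CPM in shGrhl3 (log2 fold change 0.32, 95% interval -0.73 to 1.36, adjusted p = 0.616). Cxcl5 was at 0.993 and 4.03 CPM in shNT and at 2.44 and 1.23 CPM in shGrhl3 (log2 fold change -0.36, adjusted p = 0.678). For each of Cxcl1 and Cxcl5 the shNT libraries lay on either side of both shGrhl3 libraries, and the higher shNT library was replicate 2. Without shNT replicate 2, Cxcl1 passed as higher (log2 fold change 1.06, adjusted p = 0.000280), and without shNT replicate 1 Cxcl5 passed as lower (-1.12, adjusted p = 0.0356). Cxcl2 had 13 counts in each shNT library and 9 and 5 in shGrhl3 (log2 fold change -1.03, adjusted p = 0.268).

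The other 7 CXC ligands were too low to test. Cxcl3 had 0 and 2 counts in shNT and 7 and 6 in shGrhl3, and Cxcl14 had 3 and 4 against 1 and 0. Cxcl11, which RefSeq lists as a transcribed pseudogene, had 9 and 6 against 5 and 12. Cxcl13 and Cxcl17 had 1 count each, while Cxcl9 and Cxcl15 had 0. Cx3cl1, a ligand held on the cell surface that binds Cx3cr1 on monocytes, had 121 and 91 counts in shNT and 298 and 211 in shGrhl3. It rose from 6.03 ± 0.419 to 13.1 ± 2.52 CPM (SD, n = 2; 2.17-fold, log2 fold change 1.12, SE 0.19, adjusted p = 8.02e-05).

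Among the conventional receptors, 4 of 16 were tested, 1 rose and 2 fell. That is 25% and 50% of only 4 genes, against 17.2% and 18.1% over all genes tested. Ccr6, the only known chemokine receptor for Ccl20, had 6 counts in each shNT library and 30 and 28 in shGrhl3. It rose 4.30-fold (log2 fold change 2.11, SE 0.59, adjusted p = 0.00710), and the call was lost without shNT replicate 1 (adjusted p = 0.0724). Ligand and receptor of this pair were thus both higher in shGrhl3, the receptor at low counts.

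Ccr1, a receptor of monocytes and neutrophils, had 40 and 66 counts in shNT and 1 and 3 in shGrhl3. Its CPM fell from 2.09 and 4.16 to 0.0499 and 0.161, a 27.7-fold difference (log2 fold change -4.79, SE 0.69, adjusted p = 6.95e-06) with an exact 95% counting interval of 11.1 to 109.6 on the pooled ratio. Leaving out shGrhl3 replicate 2 moved the log2 fold change of Ccr1 to -5.73 and leaving out replicate 1 to -4.18, with the call kept in both.

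Cxcr4, the signalling receptor of Cxcl12, had 115 and 101 counts in shNT and 33 and 19 in shGrhl3. It fell from 6.18 ± 0.248 to 1.33 ± 0.445 CPM (SD, n = 2), a log2 fold change of -2.20 (SE 0.31, adjusted p = 5.68e-06), and the groups lay far apart. Cxcr6, the receptor of Cxcl16, had 2 and 10 counts against 32 and 11 and did not pass (log2 fold change 1.67, SE 0.72, adjusted p = 0.0769). It passed as higher without shNT replicate 2 (adjusted p = 0.0179) and without shGrhl3 replicate 2 (0.00713), and its log2 fold change fell to 0.77 without shGrhl3 replicate 1.

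The 12 untested conventional receptors included Cxcr2, the neutrophil receptor of Cxcl1, Cxcl2 and Cxcl5, with 0 counts in both shNT libraries and 5 in each shGrhl3 library. Ccr10 had 10 and 3 counts in shNT and 1 and 5 in shGrhl3, and Ccr3 had 1 and 6 against 1 and 2. Ccr9 had 0 and 2 against 5 and 0, and Cx3cr1 had 0 and 4 against 1 and 0. Ccr4, Ccr7, Cxcr3 and Cxcr5 had at most 2 counts in any library. Ccr2, Ccr8 and Cxcr1 had 0 counts in all 4.

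Atypical receptors shape gradients by taking ligands up. Ackr3, which removes Cxcl12, had 1087 and 856 counts in shNT and 380 and 367 in shGrhl3. In CPM these were 56.8 and 53.9 against 19.0 and 19.6, a fall of 1.52 on the log2 scale (SE 0.11, adjusted p = 3.37e-10) with little spread in either group. Both receptors of Cxcl12 were therefore lower while the interval for Cxcl12 itself ran from -0.00081 to 0.35 on the log2 scale. Ackr4, which removes Ccl19, Ccl21 and Ccl25, was at 2.93 and 2.52 CPM in shNT and at 1.40 and 1.50 CPM in shGrhl3, just short of the threshold (log2 fold change -0.92, SE 0.36, adjusted p = 0.0510). Ackr4 passed in only 1 of 14 alternatives, when genes needed 30 counts to enter the test (0.0452). With DESeq2 (adjusted p = 0.163) and limma-voom (0.0717) it did not pass. Ackr2 had 0 and 1 counts against 0 and 4, and Ackr1 had 2 counts in a single shGrhl3 library.

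**Figure D3:**
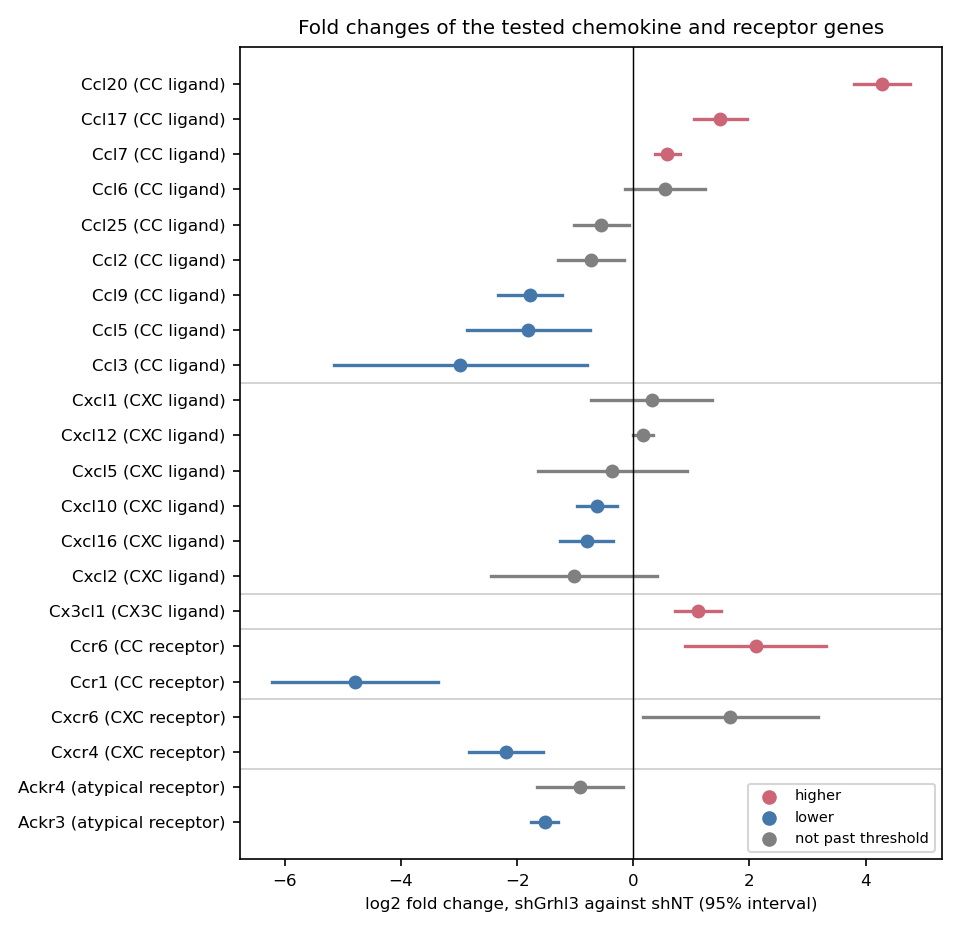
Log2 fold changes (points) of the 22 tested genes, shGrhl3 against shNT, with 95% intervals (bars), coloured by call. Ccl20 stands highest at 4.29 and Ccr1 lowest at -4.79.

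Many of these genes lie in clusters of related copies. On chromosome 8, Ccl22 (94745684 to 94751388), Cx3cl1 (94772180 to 94782427) and Ccl17 (94809380 to 94812038) lie next to each other, 20.8 kb apart for the first pair; Cx3cl1 and Ccl17 rose while Ccl22 was near 0. On chromosome 11, Ccl2 (82035577 to 82037452) and Ccl7 (82045712 to 82047525) are 8.26 kb apart and had log2 fold changes of opposite sign, of which only that of Ccl7 passed. Further along, Ccl5, Ccl9 and Ccl3 fell, and Ccl6 (83587886 to 83593087), 9.25 kb from Ccl9 (83572917 to 83578636), did not pass. On chromosome 9, Ccr1 (123962126 to 123968692) fell, Cxcr6 did not pass, and Ccr3 and Ccr2 were at or near 0 counts. Ccl20 (83116766 to 83119167), Ackr3 (90203980 to 90215724) and Cxcr4 (128588199 to 128592299) all lie on chromosome 1, megabases apart, and Ccr6 lies on chromosome 17 (8236041 to 8258519). Positions are whole-gene spans from RefSeq (GRCm38.p6, which is mm10). Close copies such as Ccl2 and Ccl7, Ccl6 and Ccl9, Ccl3 and Ccl4, or Cxcl1, Cxcl2 and Cxcl3 could share reads, and the listed spans of Ccl3 and Ccl4 overlap; how the counting treated such reads is not stated in the sources at hand.

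**Figure D4:**
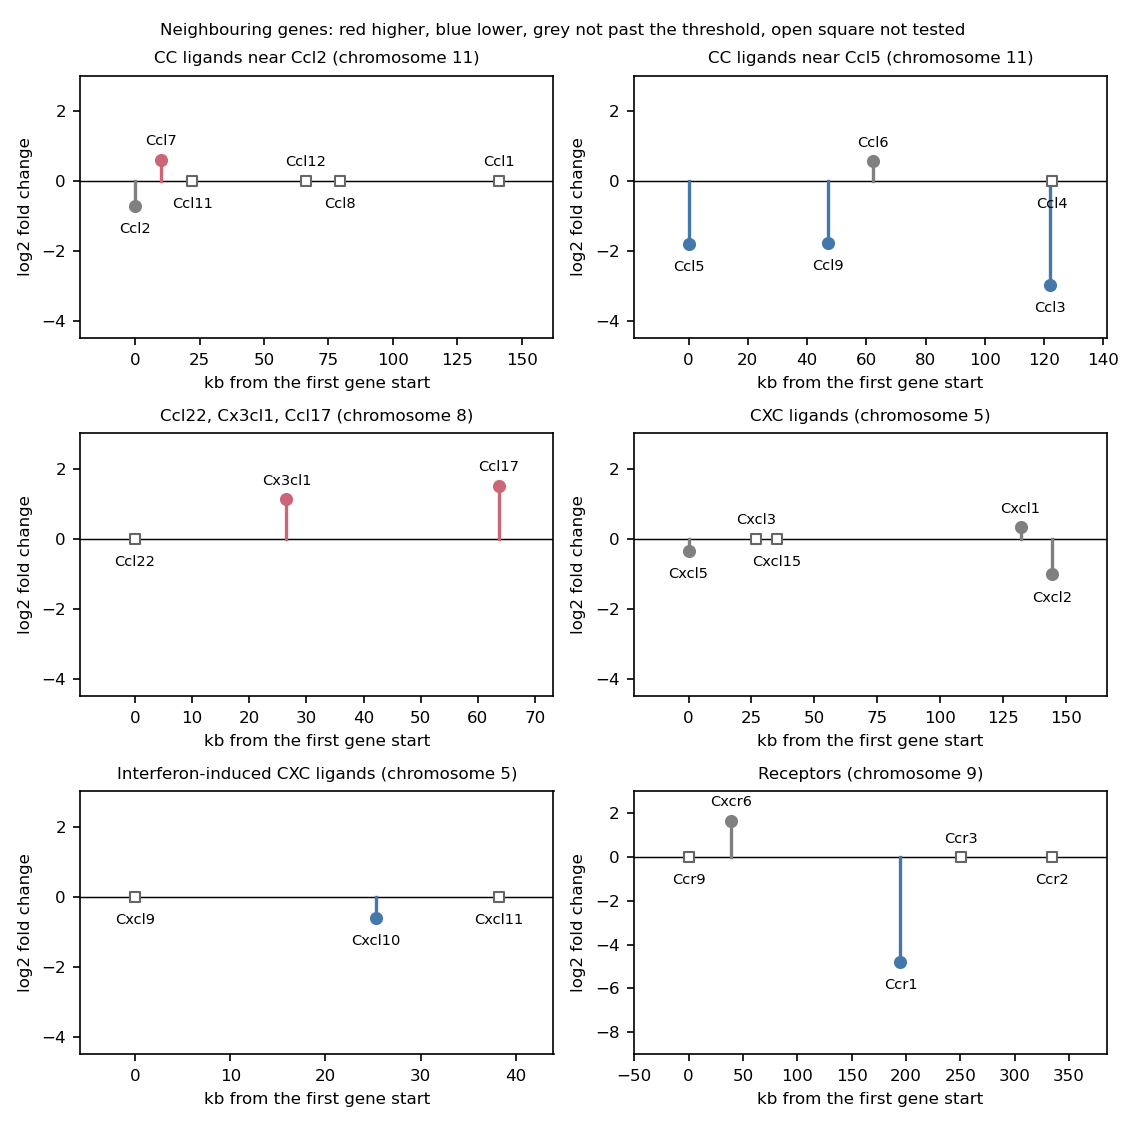
Log2 fold changes of neighbouring genes in 6 clusters against distance in kb from the start of the first gene shown, coloured by call, with open squares for untested genes drawn at 0. Ccl2 (-0.72) and Ccl7 (0.59) lie on opposite sides of 0, and Cx3cl1 (1.12) and Ccl17 (1.50) both lie above it; the vertical scale of the receptor panel is longer.

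Of 28 leukocyte markers, 18 were tested, 15 fell and 1 rose, with a median log2 fold change of -2.55, and Ly6g and S100a9 were at 0 in every library. Of the tested markers 83.3% fell and 5.56% rose, against 18.1% and 17.2% over all genes tested. The lowest p-values among those that fell were those of Ctss (log2 fold change -3.23), Cd68 (-2.46), Cybb (-3.36) and Mpeg1 (-3.24), all typical of macrophages. The riser was Csf1r (7.25 ± 0.0153 to 17.9 ± 1.04 CPM; SD, n = 2), the receptor of a macrophage growth factor. The range of the summed markers was 712 to 979 CPM in shNT and 131 to 164 CPM in shGrhl3. In bulk samples, fewer cells of a type and less RNA per cell cannot be told apart.

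Set against the leukocyte marker counts of the same library, the members split. Per 1000 leukocyte marker counts, Ccr1 had 2.94 and 4.24 counts in shNT and 0.305 and 1.23 in shGrhl3. Cxcr4 had 8.44 and 6.50 against 10.1 and 7.76, so on this measure its groups overlapped, and Ccl3 had 0.807 and 0.772 against 0 and 1.23. Ccl9 had 10.4 and 8.04 against 11.0 and 20.4, Ccl5 had 2.79 and 1.67 against 2.44 and 4.90, and Cxcl16 had 31.6 and 29.3 against 110.9 and 83.7. Relative to these markers, then, Ccr1 was lower and Cxcl16 higher in both shGrhl3 libraries. Ccl9 was clearly higher only in shGrhl3 replicate 2, as replicate 1 (11.0) lay close to shNT replicate 1 (10.4). The marker counts consist largely of Lyz2 (8691 and 10245 counts in shNT, 2036 and 1415 in shGrhl3). The part of leukocyte RNA in the falls of Ccr1, Cxcr4, Ccl3, Ccl5, Ccl9 and Cxcl16 was not tested.

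Further genes of the chemokine system were read from a list of 18, of which 11 were tested, 2 rose and 6 fell (median log2 fold change -0.47). These were 18.2% and 54.5% of the tested genes, against 17.2% and 18.1% over all genes tested. Adam10 and Adam17, the proteases that release Cx3cl1 and Cxcl16 from the cell surface, fell from 320 ± 9.03 to 143 ± 5.38 CPM (log2 fold change -1.16, adjusted p = 2.12e-10) and from 143 ± 3.17 to 105 ± 0.785 CPM (-0.45, adjusted p = 0.000239). Mmp2, a gelatinase that also trims chemokines, fell by 0.47 on the log2 scale, and Pf4, a CXC chemokine of platelets and macrophages outside the numbered symbols, by 1.66. Dpp4, a peptidase that inactivates Cxcl12, rose from 2.67 ± 1.02 to 4.89 ± 1.49 CPM (adjusted p = 0.0395), and Xcr1, a receptor of dendritic cells, had 4 and 11 counts against 33 and 25 (adjusted p = 0.0199). With DESeq2, 5 passed in place of 8.

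Of 55 listed genes of signalling below the receptors, 53 were in the table and 51 were tested, 6 rose and 17 fell (median log2 fold change -0.31). Of those tested, 11.8% rose and 33.3% fell, against 17.2% and 18.1% over all genes tested. The risers with the lowest p were Pik3cd, a catalytic subunit of PI3 kinase (14.1 ± 1.05 to 31.1 ± 2.18 CPM, adjusted p = 3.63e-07), Bcar1, Vav2 and Rgs3. Those that fell included Gng12, a G protein gamma subunit (284 ± 2.02 to 181 ± 3.26 CPM, adjusted p = 1.21e-06), Plcb3, Pak1 and Pik3r5, a regulatory subunit of PI3 kinase gamma (86 and 90 counts against 26 and 15). Pik3r5 is known mainly from blood cells, as are Vav1 (log2 fold change -2.10), Dock2 (-2.57), Rac2 (-2.28) and Pik3cg (-2.82), which also fell and are named after their values were seen. The part of the lower leukocyte markers in these falls was not tested.

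Of 37 NF-kappaB pathway genes, 34 were tested, 5 rose and 13 fell (median log2 fold change -0.06). That is 14.7% and 38.2% of those tested, against 17.2% and 18.1% over all genes tested. Traf3 (46.3 ± 5.62 to 73.1 ± 2.78 CPM), Il1r1, Nfkbiz and Traf2 led those that rose, and Tlr2 (33.5 ± 4.32 to 19.0 ± 0.692 CPM), Cd14, Ikbkg and Tlr3 those that fell. Without shNT replicate 1, 11 of these genes passed in place of 18, while the share over all genes tested went from 35.3% to 24.0%. Of 35 interferon pathway genes, 33 were tested, 2 rose and 17 fell (median log2 fold change -0.39), or 6.06% and 51.5% of those tested. Stat2, a signal carrier of interferon receptors (221 ± 29.9 to 115 ± 9.71 CPM, adjusted p = 8.89e-08), Ddx58, Bst2 and Gbp2 had the lowest p among those that fell, the same direction as Cxcl10. The receptor chains Ifngr2 (125 ± 2.77 to 195 ± 16.6 CPM) and Ifnar1 rose, and Ifng had 0 counts in all 4 libraries.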

How the data were processed

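RNA-seq was measured in 4 libraries of mouse induced cardiomyocytes, 2 with shNT and 2 with shGrhl3. The deposited table gives whole-number read counts per gene row as the authors made them; which counting tool was used, and how it treated strand and shared reads, is not stated in the sources at hand. The submitters' processing notes name mm10 as the build, and HISAT2 2.0.1, cutadapt 1.9.1, MACS2, ChIPseeker and Bowtie2 2.2.6 as tools, with no role for this table. H3K27ac CUT&Tag libraries of the same cells were not analysed here.

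Of 55359 rows, 1438 name no gene (0.00432% to 0.00872% of a library's counts) and were left out. Genes passed edgeR's filterByExpr with a minimum count of 10, libraries were scaled by TMM, and shGrhl3 was compared with shNT by edgeR 4.0.16's quasi-likelihood test (robust, two-sided, R 4.3.3), with Benjamini-Hochberg adjustment over all 15324 genes tested and a threshold of 0.05. Standard errors and intervals of log2 fold changes were derived from the test's F statistic. Scripts were tested on simulated data. Libraries of a group differed by more than sampling noise (chi-square per degree of freedom 14.1 in shNT and 8.66 in shGrhl3), so all 4 were counted. Symbols of 54 genes fit the rule; 1 is not reported here and stays out of every count of members, though not out of the fit. The 53 described matched the RefSeq gene table of GRCm38.p6. Intervals on counts cover counting error only.

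The members and all gene lists (chemokine handling and signalling, NF-kappaB and interferon pathways, and markers of leukocytes, endothelium, fibroblasts and cardiomyocytes) were chosen with earlier results of these data known. Every tested member described is named, untested members with 3 or more counts in a library are given with their counts, and from each list at most 4 genes with the lowest p in each direction are named, besides 4 signalling genes that are marked as named after their values were seen. Alternatives were DESeq2 1.42.0, limma-voom (limma 3.58.1), other scalings and filters, no robust estimates, summed duplicate symbols, a replicate block and leaving out each library; an older edgeR quasi-likelihood method was added after seeing the data.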

Additional observations from a re-analysis of the deposited data

How the results depend on the processing

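Of the 13 members that passed, 9 passed under every one of 14 alternatives that tested them; Ccl3, Ccl5, Ccr6 and Cxcl10 did not, as given with each. Leaving out each library gave 4 to 7 members higher and 7 to 8 lower, and 1761 to 2630 genes higher and 2074 to 2560 lower over all genes. With DESeq2, 5 chemokine handling genes passed in place of 8, and 2093 genes were higher and 2141 lower over all. NF-kappaB pathway genes past the threshold ranged from 11 to 19 when each library was left out, against 18 with all 4. Leaving out each library moved the log2 fold change of Cxcl1 from -0.23 to 1.06 and that of Cxcl5 from -1.12 to 0.90, so that both changed sign: Cxcl1 was at -0.23 without shNT replicate 1, and Cxcl5 at 0.90 without shNT replicate 2 and 0.05 without shGrhl3 replicate 2. None of these 3 passed, and the cause was not tested. The labels do not say whether libraries with the same replicate number share a culture or batch. The correlation of their deviations was -0.0735, which with 2 libraries per group cannot settle it. With the replicate block 5 members were higher and 9 lower, Ccl2 being added, and 2434 genes were higher and 2608 lower over all. A minimum count of 30 left 18 members to test, without Ccl3, Ccr6, Cxcl2 and Cxcr6. Where a left-out library leaves a group with 1 library, that library is assumed to vary like the other group. The 31 members with too few counts, 10 of them at 0 in every library, could not be tested at this depth.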
